A study of Mus musculus with 6 samples.

Results

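ATF4 occupancy was examined at 9 genes of stress hormones and secreted growth factors, Fgf21, Gdf15, Stc1, Stc2, Vegfa, Inhbe, Angptl4, Adm2 and Nupr1. A peak belonged to a gene when the annotated peak list named that gene as the nearest one, at any distance. By this rule 26 of the 17462 listed peaks fell to 7 of the 9 genes, whereas Inhbe and Angptl4 had none. The lists named 8863 genes in all.

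The 4 lists came from ATF4 ChIP-seq of primary mouse embryonic fibroblasts (MEFs) of the strain 129S6/SvEvTac. WT +Leu and GCN2 KO +Leu were wild-type and GCN2-/- cells in complete DMEM, and WT -Leu and GCN2 KO -Leu were the same genotypes kept in DMEM that lacked leucine for 24 h. Chromatin of independent experiments had been pooled into 1 library per condition. A difference between conditions therefore cannot be set against a spread between replicates, and none was tested. The headers of all 4 lists name an input library of leucine-fed cells of the same genotype as control. A peak is a window of 301 bp in mm10 with a score given by the authors, a whole number of at least 13, and its scale is not given in the sources used here. The WT lists held 4850 peaks with leucine and 6374 without it, the GCN2 KO lists 3566 and 2672, all with median scores of 29 to 30, and they give no sequencing depth. Values given below for all 4 lists follow this order. The scores of the strongest peaks near the genes of the group are therefore given with their standing in their own list. This is the number of peaks that scored higher or a percentile, the percentage of peaks with an equal or lower score. Many other scores are given alone, and between lists these may differ with depth. A gene without a peak is one for which the caller listed nothing, and at an unknown depth this does not show that ATF4 was absent.

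GCN2 is a kinase that senses a shortage of amino acids and phosphorylates the translation factor eIF2alpha, which lowers protein synthesis as a whole but raises translation of the mRNA for the transcription factor ATF4. ATF4 binds DNA as a dimer, often with a C/EBP protein, at a composite element whose usual form is TGATGCAA. Several of its known targets are secreted factors that carry the stress signal out of the cell. Fibroblast growth factor 21 (Fgf21) is a fasting hormone, growth differentiation factor 15 (Gdf15) acts on the brainstem to lower food intake, and adrenomedullin 2 (Adm2) is a peptide of the calcitonin family. Vascular endothelial growth factor A (Vegfa) drives vessel growth, stanniocalcins 1 and 2 (Stc1, Stc2) are glycoprotein hormones, and the inhibin beta E chain (Inhbe) forms activin E. Angiopoietin-like 4 (Angptl4) inhibits lipoprotein lipase. Nupr1 stands apart in this group because it encodes a small nuclear stress protein and not a secreted factor.

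The sequence at the strongest WT -Leu peak is shown first for each gene with such a peak near its transcription start. A form of the ATF4 element is marked in each, close to the peak center. The form was allowed to differ between genes, so finding one in every window is not a test. Each line gives the element in capitals with up to 40 bases on either side, read from GRCm38, the assembly that mm10 names, on the strand on which the element reads 5′ to 3′. TGATGCAA was found for Nupr1 (plus strand, chr7:126625533-126625620), Fgf21 (plus strand, chr7:45616470-45616557) and Adm2 (minus strand, chr15:89323288-89323370). A variant at its sixth base was found for Vegfa (plus strand, chr17:46030558-46030645) and Stc2 (minus strand, chr11:31369452-31369539), and TGACGCAA for Gdf15 (minus strand, chr8:70630945-70631032).
Nupr1: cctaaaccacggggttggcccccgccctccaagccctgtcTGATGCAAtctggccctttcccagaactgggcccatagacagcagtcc
Fgf21: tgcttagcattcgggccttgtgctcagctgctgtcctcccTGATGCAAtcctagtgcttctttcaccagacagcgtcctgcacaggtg
Adm2: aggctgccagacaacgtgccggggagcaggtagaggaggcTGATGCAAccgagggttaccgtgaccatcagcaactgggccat
Vegfa: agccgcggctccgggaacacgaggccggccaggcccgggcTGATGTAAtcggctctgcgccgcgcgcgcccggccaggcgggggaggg
Stc2: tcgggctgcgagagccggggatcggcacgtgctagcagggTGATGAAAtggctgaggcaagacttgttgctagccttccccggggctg
Gdf15: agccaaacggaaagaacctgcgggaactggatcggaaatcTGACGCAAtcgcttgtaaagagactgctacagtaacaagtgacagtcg

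The pair of bases after the element was tc at Nupr1, Fgf21, Vegfa and Gdf15, cc at Adm2 and tg at Stc2. The share of such pairs over all peaks was not counted, so none can be called particular to these genes. The end of the element with the lower coordinate lay 2 bp (Stc2) to 37 bp (Fgf21) from the peak center at the WT -Leu sites. The form at Gdf15 was chosen after seeing the data, once its window had been read.

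Peaks of the 9 genes were most frequent in WT cells. At any distance, 5 (55.6%) and 6 (66.7%) of the 9 genes were listed in WT cells with and without leucine, and 4 (44.4%) and 2 (22.2%) in GCN2 KO cells. Of the 21896 protein-coding genes of the reference, 14.6%, 18.3%, 11.1% and 8.57% were listed in the same order. Within 5 kb of a transcription start site (TSS), the limit that the study used for its gene lists, the numbers were 4 (Fgf21, Gdf15, Vegfa and Nupr1), 6 (these and Adm2 and Stc2), 2 (Adm2 and Nupr1) and 0. The share of all protein-coding genes was 3.03%, 4.4%, 2.27% and 1.61%. The genes were grouped with earlier results of these data known, and most are known ATF4 targets, so these counts describe the group and are not a test of it.

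**Figure D1:**
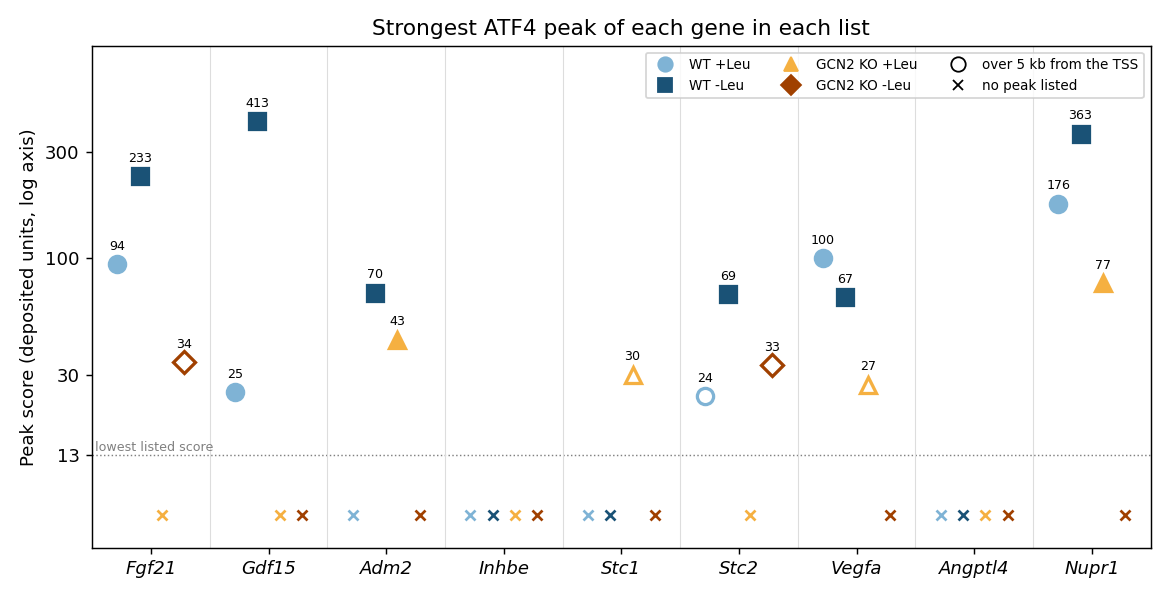
Score of the strongest ATF4 peak of each of the 9 genes in the 4 lists, on a log axis, with 1 library per list and hence no error bars. Filled symbols are peaks within 5 kb of the TSS, open symbols lie farther away, and crosses mark lists without a peak. The 4 highest values, from 176 to 413, are those of Gdf15, Nupr1 and Fgf21 in WT cells, and no filled symbol is from GCN2 KO -Leu.

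Fgf21 is encoded on the minus strand of chromosome 7 from 45613890 to 45615490. It had a peak of 94 in WT +Leu, where 95 peaks scored higher, and of 233 in WT -Leu, where 253 did. The windows were centered at -1023 and -1057 bp from the TSS, 34 bp apart, and thus count as a common site (centers 300 bp or less apart). The lists annotate them as intergenic. They lie between the starts of Fgf21 and Fut1, a fucosyltransferase gene on the opposite strand. The WT -Leu center is almost equally far from both, 1057 bp from the start of Fgf21 and 1059 bp from that of Fut1. GCN2 KO +Leu had no peak within 160 kb. The GCN2 KO -Leu list named Fgf21 for a peak of 34 at 5305 bp, past the end of the gene and in a SINE repeat, which is a different site without the element. The site upstream of Fgf21 was thus listed in WT cells alone, in either medium.

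A second TGATGCAA lies closer to the gene, at -139 bp from the TSS (plus strand, chr7:45615582-45615669), and is shown because no list had a peak there. The nearest centers were 891 bp away in WT +Leu and 925 bp away in WT -Leu, both at the distal site.
Fgf21 proximal element: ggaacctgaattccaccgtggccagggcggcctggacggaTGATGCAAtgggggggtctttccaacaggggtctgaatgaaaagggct

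Gdf15, on the minus strand of chromosome 8 from 70629393 to 70632470, had the highest score of the group. Its WT -Leu peak of 413, exceeded by 122 peaks, was centered at 640 bp from the TSS in an intron. In WT +Leu the gene had a weak upstream peak at -2066 bp with a score of 25, below which or level with which lay 35.9% of that list. The centers were 2706 bp apart, so the intronic site of starved WT cells had no counterpart in fed ones. No peak of either GCN2 KO list lay within 80 kb of a Gdf15 TSS, the nearest being 159 kb away with leucine and 80.2 kb away without it. The TSS used in the lists differs from those of the reference, by which the intronic center is 1100 bp from the nearest start.

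Adm2, on the plus strand of chromosome 15 from 89322720 to 89324731, was the only gene of the group with a peak near its TSS in starved WT and in fed GCN2 KO cells but in neither of the other lists. The WT -Leu peak scored 70 and was exceeded by 862 peaks (86.5th percentile), and the GCN2 KO +Leu peak scored 43 and was exceeded by 267 (92.5th percentile). The order of the scores and the order of the percentiles were thus opposite. The centers, at 392 and 444 bp, were 52 bp apart with the same TGATGCAA between them, and both lay in the second exon. The TSS used in the lists differs from that of the reference, by which the centers are at 571 and 623 bp. The element falls in the coding part of that exon. With leucine, the nearest peak of WT cells was 18.0 kb from the reference TSS.

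Stc2 is encoded on the minus strand of chromosome 11 from 31359441 to 31370061. Its WT -Leu peak scored 69, was exceeded by 870 peaks and was centered at 567 bp, in the first intron and a CpG island. The other lists named Stc2 only for remote peaks without any TGATGNAA near the center (N being any base), 24 at -133354 bp in WT +Leu and 33 at 16682 bp in GCN2 KO -Leu. GCN2 KO +Leu had none. Its paralog Stc1, on chromosome 14, had a single peak, of 30 at 28158 bp in GCN2 KO +Leu, in a CA simple repeat with 72.1% of the window masked as repeat. In WT cells the nearest peak of any name was 211 kb from Stc1 with leucine and 607 kb without it.

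Vegfa, on the minus strand of chromosome 17 from 46016993 to 46032377, had the most peaks, 11 in 3 lists, and only those at 1 site recurred. This site, in the first intron and a CpG island, scored 100 in WT +Leu (98.2nd percentile) and 67 in WT -Leu (85.7th percentile). It was the only common site of the group with a lower score without leucine. The centers at 1835 and 1773 bp were 62 bp apart, and the TGATGTAA element began 6 bp from the WT -Leu center but 56 bp from the WT +Leu center. Distances at Vegfa are from the nearer of 2 starts, 46032377 for this site and 46025163 inside the gene. Of the other Vegfa peaks, that of 28 at -2233 bp in WT -Leu lay in an intron, between the starts. These other peaks scored 19 to 41 and lay between -29790 and 119187 bp, and none had TGATGNAA in its window. The single peak in GCN2 KO +Leu was 1 of these, with a score of 27 at 119187 bp, and GCN2 KO -Leu had none.

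The Vegfa locus also held a site, stronger than the intronic one in WT -Leu but weaker in WT +Leu, that the lists assign to the neighbouring gene Mrps18a, a mitochondrial ribosomal protein gene. It lies 41.7 kb upstream of the nearer Vegfa TSS and 37.0 kb from that of Mrps18a in intergenic sequence. Its score was 45 in WT +Leu, exceeded by 610 peaks, and 311 in WT -Leu, exceeded by 172. Neither GCN2 KO list had a peak there. The centers were 30 bp apart, and the end of TGATGCAA with the lower coordinate lay 2 bp from the WT -Leu center. Its sequence (minus strand, chr17:46074035-46074122) is given because the site, unlike the intronic one, scored higher without leucine in score and in percentile (87.4 and 97.3).
Mrps18a and Vegfa intergenic site: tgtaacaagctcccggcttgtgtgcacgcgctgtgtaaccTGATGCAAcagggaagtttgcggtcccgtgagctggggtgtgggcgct

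Nupr1, on the minus strand of chromosome 7 from 126623246 to 126625470, was the gene of the group with a promoter peak in 3 lists. The scores were 176 in WT +Leu, 363 in WT -Leu and 77 in GCN2 KO +Leu, exceeded by 37, 145 and 41 peaks, and GCN2 KO -Leu had no peak within 152 kb. The centers at -126, -122 and -75 bp all fell within 51 bp of each other around a TGATGCAA. The end of this element farther from the TSS is at -110 bp. The percentiles were 99.2, 97.7 and 98.9, a range in which differences of score are compressed. Chac1, a well-known ATF4 target, stood at 99.8 or higher in every list with scores from 184 to 2515. A weak second peak in WT -Leu, of 28 at 746 bp, lay in the second intron at a SINE repeat, with TGATGAAA 22 bp from its center.

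Inhbe and Angptl4 were named for no peak in any list. For Inhbe, on chromosome 10, the nearest strong peak lay 40.2 kb away at the 5′ UTR of Mars, the methionyl-tRNA synthetase gene, with scores of 422 in WT +Leu, 621 in WT -Leu and 43 in GCN2 KO +Leu. A peak of 29 in an intron of Gli1, in WT +Leu, was closer at 15.2 kb. The Inhbe promoter holds TGATGCAA at -181 bp (plus strand, chr10:127351982-127352069), shown here as an element without a listed peak. For Angptl4, on chromosome 17, the nearest peak of any list was 64.7 kb away, with a score of 36 in WT +Leu.
Inhbe promoter element: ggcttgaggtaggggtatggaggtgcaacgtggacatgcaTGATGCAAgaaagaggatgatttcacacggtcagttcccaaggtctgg

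**Figure D2:**
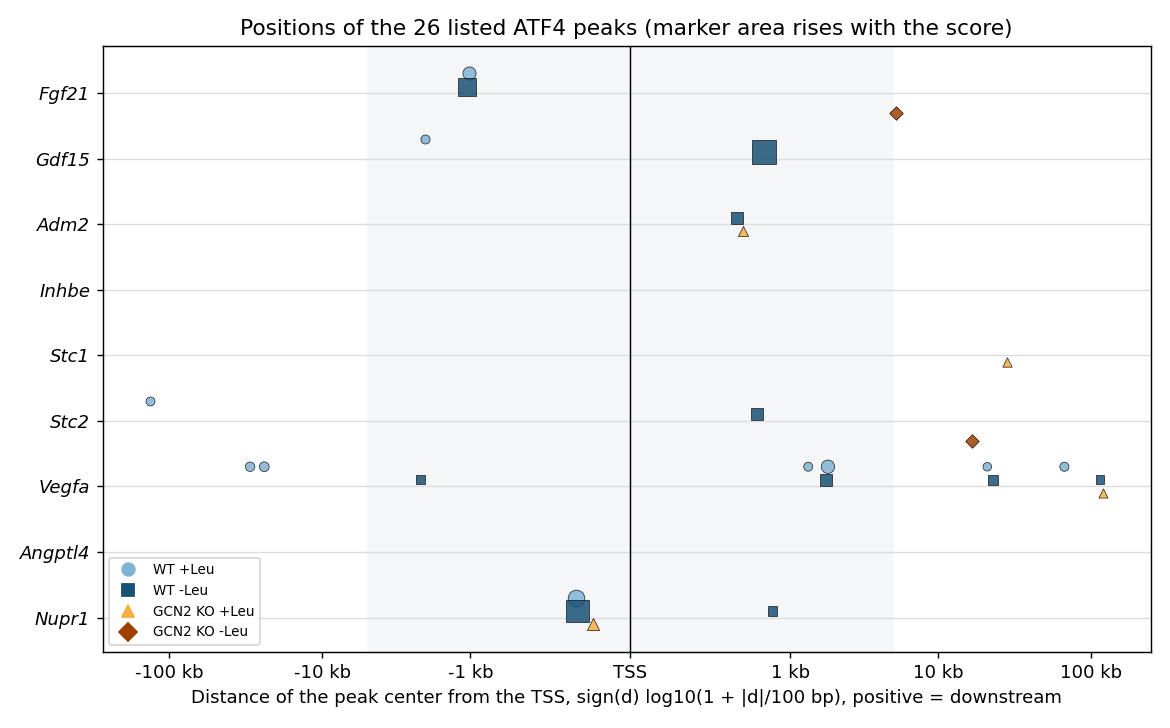
Distance of the center of each of the 26 peaks from the TSS that its list used (positive downstream, on a signed logarithmic axis). Marker area rises with the score. For Vegfa the nearer of 2 starts was used. The shaded band is 5 kb on either side. The large markers, Nupr1, Fgf21 and Gdf15 in WT cells, all lie within the band, and the 11 peaks outside it score 19 to 41.

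Near and remote peaks of the group differed in score, sequence and recurrence. The 15 peaks within 5 kb had scores of 24 to 413 (median 70), 7 held TGATGCAA within 50 bp of the center, and 9 had a peak of another list 300 bp or less away. A site was counted once for each list that held it, here and over all genes. The 7 peaks are thus repeats of the sites of Nupr1, Fgf21 and Adm2. The 9 are repeats of these and of the Vegfa site. The 11 peaks beyond 5 kb scored 19 to 41 (median 30), and none held the element or had such a partner. Over all genes the 3001 peaks within 5 kb also held TGATGCAA more often than the 14442 peaks beyond (7.07% and 2.97%) and more often had a partner (12.3% and 5.10%), while the median score was 30 in both, so the direction of the contrast in sequence and recurrence is not particular to the group. By annotation, 14 of the 26 peaks were intergenic, 7 intronic, 3 in a promoter and 2 in an exon. The GC content of the windows was 51.8% to 75.1% within 5 kb and 44.9% to 57.1% beyond, and the highest values were those of the CpG island sites of Vegfa (73.8% and 75.1%) and Stc2 (68.1%).

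Searched on both strands up to 50 bp from the center, TGATGCAA was present in 2 of 10 and 3 of 10 peaks of the group in WT cells with and without leucine, and in 2 of 4 and 0 of 2 in GCN2 KO cells. Among all peaks on assembled chromosomes the share was 2.71%, 6.95%, 1.07% and 1.09%, and among those within 5 kb of a TSS, where 15 of the 26 peaks of the group lie, it was 7.15%, 10.2%, 3.39% and 3.29%. With any base at the sixth position, the WT -Leu count was 6 of 10, against 11.0% of the list as a whole (95% Wilson interval 10.2 to 11.8) and 15.3% of its peaks within 5 kb (13.4 to 17.5). This form includes TGATGCAA. TGACGCAA, the form in the Gdf15 intron, was present in 0.613% of all WT -Leu peaks (0.449 to 0.837) and in 1.79% of those within 5 kb (1.17 to 2.72). Since the libraries differ in peak number and peaks of 1 gene share their surroundings, these shares are descriptions. Promoter sequences of 300 bases (250 before to 50 after the start, RefSeq, GRCm38.p6) were given for 7 of the 9 genes, all but Stc1 and Angptl4. They held TGATGCAA for 3 of the 7 (Fgf21, Inhbe and Nupr1) and for 1.01% of 17491 protein-coding genes, and only that of Nupr1 lay under a peak.

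Scores with and without leucine were compared at sites common to the WT lists. The group had 3, those of Nupr1, Vegfa and Fgf21, and 1.11% of protein-coding genes had any. Without leucine the score was 2.06 times that with leucine at Nupr1, 2.48 times at Fgf21 and 0.67 times at Vegfa. Scores of separately called lists can depend on their depth, so they were set beside the 308 common WT sites as a whole, of which 81.8% scored higher without leucine. The median ratio there was 2.36 (quartiles 1.27 and 4.56). Nupr1 and Fgf21 stood near this middle, with lower ratios at 43.2% and 51.3% of the sites, whereas only 5.19% of the sites had a lower ratio than Vegfa. The 109 common sites within 5 kb of a TSS had a higher median ratio, 2.65, and 98 of them scored higher without leucine. The ratios of Nupr1 and Fgf21 were both below that median. Sites were not matched for score in either comparison. By percentile within the list, Nupr1 (99.2 and 97.7), Fgf21 (98.0 and 96.0) and Vegfa (98.2 and 85.7) were all lower without leucine, whereas 49.0% of the 308 sites were higher. The ratios at Nupr1 and Fgf21 thus lay between the quartiles of all common sites. Gdf15 and Stc2 had no common site, and their scores near the TSS, 413 and 69, appeared in WT -Leu alone. In GCN2 KO cells no gene of the group had a site common to both media (0.324% of all protein-coding genes did).

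**Figure D3:**
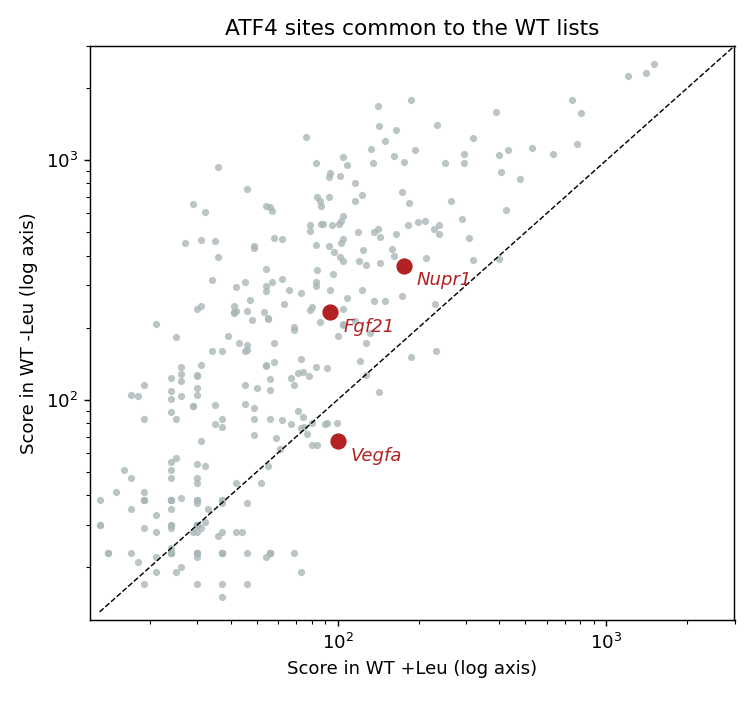
Scores of the 308 ATF4 sites common to WT +Leu (x axis) and WT -Leu (y axis), both log axes, each gray point 1 site and the dashed line equal scores. Nupr1 (176 and 363) and Fgf21 (94 and 233) lie above the line within the cloud, and Vegfa (100 and 67) lies below it.

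Between genotypes, Nupr1 was the only gene of the group with a site common to WT +Leu and GCN2 KO +Leu (0.338% of protein-coding genes), where the score with GCN2 lost was 0.438 times that of WT. Its percentiles were nearly equal, 99.2 in WT +Leu and 98.9 in GCN2 KO +Leu. The highest scores of these lists were 1499 and 391, so the lower score is not particular to Nupr1. Without leucine no site was common to WT and GCN2 KO (0.297% of protein-coding genes). The 6 genes with a WT -Leu peak within 5 kb lacked one in GCN2 KO -Leu, as did 94.8% of the 964 protein-coding genes with such a WT -Leu peak, so this is the general pattern of the lists. The GCN2 KO -Leu list was also the shortest, and the part of depth in this difference was not tested.

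For scale, well-known ATF4 targets were read in the same way. Chac1, a glutathione-degrading enzyme, scored 1499, 2515, 391 and 184 in the 4 lists, and Asns, asparagine synthetase, 746, 1787, 184 and 41. Ddit3, the transcription factor CHOP, scored 173, 736 and 40 in the first 3, and the pseudokinase gene Trib3 101, 540 and 58, and neither was listed in starved GCN2 KO cells. Nupr1 and Ddit3 stood at 176 and 173 in WT +Leu and at 363 and 736 in WT -Leu. The highest score of the group in WT -Leu, 413 for Gdf15, was under that of each of these 4 genes.

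**Figure D4:**
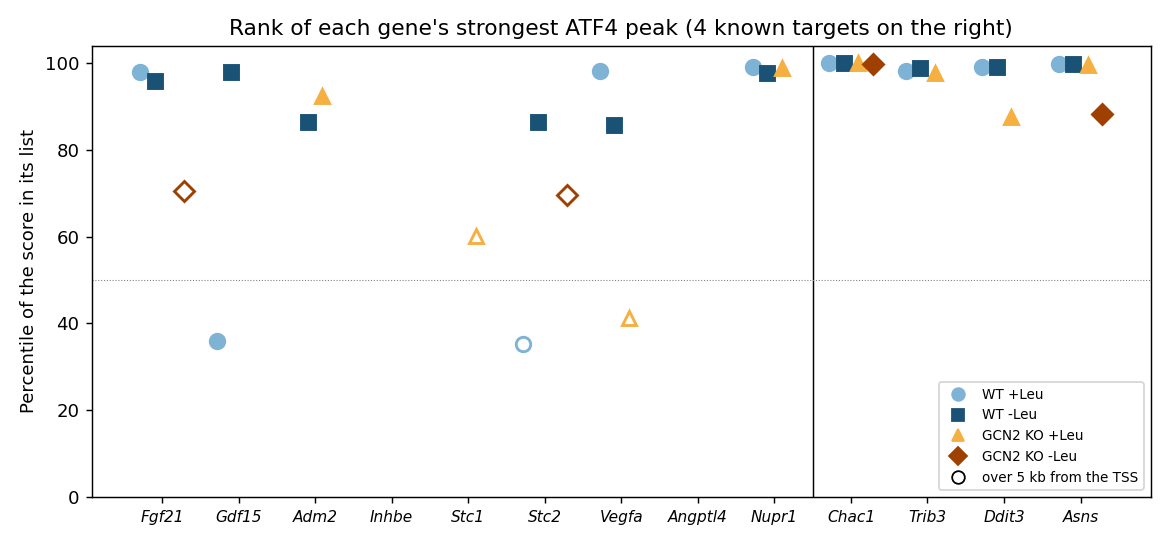
Percentile of the strongest peak of each gene among all scores of its own list, with the 4 known ATF4 targets to the right of the line. Open symbols lie more than 5 kb from the TSS, and lists without a peak are left blank. Nupr1 stands between 97.7 and 99.2 in 3 lists in which its score runs from 77 to 363, Gdf15 stands at 35.9 in WT +Leu and 98.1 in WT -Leu, and the open symbols lie between 35.3 and 70.6.

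Genes related to the 9 had peaks near a TSS about as often as protein-coding genes in general. Of 67 further genes of the fibroblast growth factor, transforming growth factor beta, VEGF, angiopoietin-like, calcitonin and Nupr1 families, 3 (4.48%) and 5 (7.46%) were listed within 5 kb in fed and starved WT cells, and 2 (2.99%) and 1 (1.49%) in GCN2 KO cells, against 3.03%, 4.4%, 2.27% and 1.61% of all protein-coding genes. Fgf23, a phosphate-regulating hormone, had the highest of these scores, 73 at -3993 bp in WT -Leu with TGATGCAA in its window. Fgf15, the bile acid-responsive gut hormone, had a promoter peak of 37 at -4 bp in WT +Leu, also with the element. The others scored 13 to 30 and lacked it. They were Fgf3 (30) and Fgf12 (26) in WT +Leu, and Fgf11 (23), Inhbb (22), Pgf (30) and Angptl8 (30) in WT -Leu. In GCN2 KO cells they were Gdf3 (30) and Bmp6 (29) with leucine and Angptl2 (13) without it. Each of these 11 genes was listed within 5 kb in a single condition, as were 86.9% of the 2129 protein-coding genes with a peak within 5 kb in any list.

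The receptors and direct targets of the hormones were also read. Of 19 such genes only Pappa2, a protease that cleaves insulin-like growth factor binding proteins and belongs to the family that stanniocalcins inhibit, had a peak within 5 kb, of 44 at 646 bp in WT -Leu (5.26% of the 19, beside 4.4% of all protein-coding genes). The receptor genes of Fgf21 (Fgfr1, Klb), Gdf15 (Gfral, Ret), VEGF (Flt1, Kdr, Nrp1, Nrp2), the adrenomedullins (Calcrl, Ramp1, Ramp2, Ramp3) and activins (Acvr1b, Acvr1c, Acvr2a, Acvr2b) had none there in any list. The same was true of Pappa and of Lpl, the lipoprotein lipase gene.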

How the data were processed

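ATF4 ChIP-seq had been made from 4 conditions of MEFs with 1 library each. Per the methods and the submitters' processing notes, the authors trimmed the reads and aligned them to mm10 with BWA 0.7.12, called peaks with MACS2 2.1.0 against input DNA and annotated the peak windows with HOMER 4.7. The authors deposited a score per peak (no normalization between libraries is given in the sources used here), its signed distance in bp from a TSS, and the fraction of GC and of CpG in its window. The input libraries were not used here.

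Peaks were matched to genes by the name in each list. The GC content of all peaks on assembled chromosomes equalled that of GRCm38 at the listed coordinates, so its sequence and RefSeq genes were used. Of 8863 names, 7547 matched a protein-coding gene. Common sites, percentiles and motifs were computed with Python 3.11.15, pandas 2.3.3, scipy 1.17.1 and pysam 0.24.0, and the steps were tested on simulated data. Intervals are 95% Wilson intervals and cover counting error only.

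The 9 genes and the gene lists were chosen with earlier results of these data known. Named were the 9 genes, family and receptor genes with a peak within 5 kb, genes named for peaks within 50 kb, the 3 genes closest in percentile to each gene found in 2 or more lists, and Chac1, Trib3, Ddit3 and Asns. For any further gene the text says that its values were known when it was picked. Alternatives were other distances, overlaps, motifs, score limits and ranks.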

Additional observations from a re-analysis of the deposited data

Results flagged for a closer look

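The number of the 9 genes with a peak within 5 kb moved in opposite directions in the genotypes, from 4 with leucine to 6 without it in WT and from 2 to 0 in GCN2 KO. Nupr1 moved likewise, from a score of 176 to 363 in WT and from 77 to no listed peak in GCN2 KO. Adm2 had no listed peak with leucine and a score of 70 without it in WT, whereas in GCN2 KO it had 43 with leucine and no listed peak without it. With 1 library per condition these differences were not tested, and the numbers of all peaks moved in the same directions (4850 and 6374 in WT, 3566 and 2672 in GCN2 KO). The part of library depth was not tested.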

How the results depend on the processing

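No paired analysis was possible because each condition had 1 library, and for the same reason no library could be left out. Of 93 values computed under the alternatives, 68 stayed within 1.5 times the reported count or equal to the reported ratio. With a score of 30 or more, or with lists cut to the 2672 strongest peaks, 3 genes in place of 5 had a peak at any distance in WT +Leu, since Gdf15 and Stc2 were lost. Within 1 kb of the TSS 1 in place of 4 was left in WT +Leu, and in GCN2 KO -Leu limits of 10 and 50 kb gave 1 and 2 genes in place of 0. TGATGNAA gave 6 in place of 3 peaks in WT -Leu, and TGACGCAA, added after the data were seen, gave 0 in place of 2 in WT +Leu, 1 in place of 3 in WT -Leu and 0 in place of 2 in GCN2 KO +Leu. The number of related family genes in starved WT cells was 5, and became 1 within 1 kb, 8 within 10 kb and 3 with a score of 30 or more. In fed GCN2 KO cells the 2 became 0 within 1 kb and 1 with a score of 30 or more, and in starved ones the 1 became 0 within 1 kb, 3 within 10 kb and 0 with a score of 30 or more. In fed WT cells the 3 became 5 within 10 kb. The strongest score was higher in WT -Leu than in WT +Leu for 4 of the 5 genes with a peak in both lists, and for 2 of 5 by percentile. These are Gdf15 and Stc2, whose peaks in the WT lists lie at different sites, and no common site of the group was higher by percentile. The direction turned by percentile for Fgf21 (ratio 0.979) and Nupr1 (0.985), and for Vegfa with the peak nearest to the TSS (2.79 in place of 0.67), where the peaks compared lie at different sites. Depth is not in the lists and limits every comparison of scores and of missing peaks.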

Other observations

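The percentile pattern of the strongest peak over the 4 lists (0 where there was no peak) was compared with that of every gene named in the lists. The strongest peak was taken at any distance. For Fgf21, Gdf15, Stc2 and Vegfa the pattern therefore joins peaks at different sites. Closest to Nupr1 were Pck2, the mitochondrial form of phosphoenolpyruvate carboxykinase, the cationic amino acid transporter gene Slc7a1 and Eif4ebp1, a translation repressor, with summed absolute differences of 1.0, 1.1 and 2.1 percentile points. Closest to Gdf15 were Abca4 (1.0), Artn (1.5) and Klhl29 (2.7), and to Adm2 Gm17455 (2.4), Rbms3 (3.6) and Ndfip1 (4.3). Fgf21 was closest to Mitf (7.5), Anks6 (10.1) and Soat2 (10.1), Stc2 to Pop5 (12.4), Bahcc1 (14.0) and Plet1 (14.5), and Vegfa to Cacna1c (16.0), N4bp2l1 (16.7) and Herpud1 (16.9). These are orders over 4 lists without replicates.

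Among the receptor and target genes, 3 had strong remote peaks in WT -Leu and were chosen after their values were seen. Acvr2a, an activin receptor, was named for a peak of 1340 at -294011 bp, with 165 at -294018 bp in WT +Leu. Pappa, a protease that stanniocalcins inhibit, was named for a peak of 307 at 226553 bp, and Fgfr1 for one of 130 at -50681 bp. In GCN2 KO +Leu, Acvr2a and Pappa had only weaker peaks elsewhere (37 at -1071969 bp and 20 at -266563 bp), and in GCN2 KO -Leu none of the 3 had a peak.

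Other peaks within 50 kb of a TSS of the group carried other names. Near Adm2 they were Mir6959 in every list but GCN2 KO -Leu and Miox in WT -Leu (scores 21 to 58). Near Nupr1 they were Apobr and Mir7059 in WT +Leu (31 and 24). Near Fgf21 they were 0610005C13Rik and Rasip1 in GCN2 KO -Leu (32 and 18). Near Gdf15 it was Pgpep1 in WT +Leu (30), 14.5 kb from a Gdf15 TSS. This peak held TGATGCAA within 50 bp of its center, and the others named here did not.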
